A study of Rattus norvegicus with 9 samples.

Results

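miR-125a and miR-125b were followed through 9 small RNA libraries of rat left ventricle. The members were every unique sequence that the annotation placed under a rat entry whose name begins with mir-125a or mir-125b, with the sequences of the opposite (*) strand included. There were 1060 such sequences of 46358 in all, 507 under mir-125a and 553 under mir-125b. The only measured value in this choice was that a sequence had at least 1 read in 1 library, and 880 of the 1060 had fewer than 10 reads over the 9 libraries. The libraries came from the hearts of 3 male Sprague-Dawley rats aged 8 months, numbered 6, 7 and 8. The free wall of each left ventricle was cut into epicardium, mid-myocardium and endocardium, so each layer had 3 libraries and each heart gave 1 library per layer. Values are in RPMM, the reads of a sequence per 1000000 annotated reads of its library. Where 3 values are given for a heart, they stand in the order epicardium, mid-myocardium, endocardium.

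miRNAs are short RNAs cut from a hairpin precursor, first by Drosha and then by Dicer, and loaded into an Argonaute protein that uses the seed near their 5′ end to find target mRNAs. The arm that is usually loaded is called mature, and the other arm is the * strand. A sequence that differs from the annotated mature form at either end is an isomiR, and the 3′ end varies most, because exonucleases can shorten it and nucleotidyl transferases can add adenosines or uridines. The miR-125 family is the vertebrate form of lin-4, the first miRNA described in worms. In vertebrates its genes lie near those of the miR-99/100 and let-7 families. miR-125b is known in the heart for roles in cardiac cell differentiation and in the response to injury.

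miR-125a is made from 1 hairpin and miR-125b from 2. Mir125a lies at chr1:67350675-67350759, Mir125b1 at chr8:50850036-50850122 and Mir125b2 at chr11:29732572-29732659, all on the plus strand of GRCr8, the RefSeq build from which gene positions and reference sequences were taken. Mir125a is 542 bases from Mir99b and 354 bases from Mirlet7e, whereas Mir125b1 is 51.662 kb from Mir100, and Mir125b2 is 45.1 kb from Mir99a and 44.367 kb from Mirlet7c1. The mature sequences are shown here because the arms and the 3′ ends are the subject of what follows, with the seed (nts 2 to 8) in capitals.
rno-miR-125a-5p: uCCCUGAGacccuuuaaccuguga
rno-miR-125b-5p: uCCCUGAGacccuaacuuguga
rno-miR-351-5p: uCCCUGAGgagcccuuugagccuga
rno-miR-125a-3p: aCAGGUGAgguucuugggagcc
rno-miR-125b-1-3p: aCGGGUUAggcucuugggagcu
rno-miR-125b-2-3p: aCAAGUCAggcucuugggaccu
Of 693 rat mature miRNAs in RefSeq, 3 carry the seed CCCUGAG, namely both miR-125 forms and miR-351. The mature forms of miR-125a (24 nts) and miR-125b (22 nts) share their first 13 nts and their last 5 nts. The mature sequence of each in the deposited table was identical to RefSeq. miR-125b-5p is the same from both of its hairpins, so reads of its mature form cannot be assigned to chromosome 8 or 11. The annotation placed some reads extended past it at the 3′ end on 1 hairpin, as for tccctgagaccctaacttgTGAT (323 reads under mir-125b-1). A chromosome 11 read with an added U would match that sequence too, so its origin is not certain. The 3′ arms of the 2 hairpins differ in sequence and can be assigned.

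The isomiRs on which most of the results turn are written as the deposited table gives them, in DNA letters. Capitals mark whatever follows nt 21 of miR-125a or nt 19 of miR-125b, that is, the stretch in which the 3′ ends differ.
miR-125a, exact mature: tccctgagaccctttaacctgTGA
miR-125a, 1 nt shorter: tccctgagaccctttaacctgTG
miR-125a, 2 nts shorter: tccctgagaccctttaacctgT
miR-125a, 3 nts shorter: tccctgagaccctttaacctg
miR-125a, 3 nts shorter with an added A: tccctgagaccctttaacctgA
miR-125a, 2 nts shorter with an added A: tccctgagaccctttaacctgTA
miR-125b, exact mature: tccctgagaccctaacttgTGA
miR-125b, 1 nt shorter: tccctgagaccctaacttgTG
miR-125b, 2 nts shorter: tccctgagaccctaacttgT
miR-125b, mature with an added A: tccctgagaccctaacttgTGAA
miR-125b, mature with 2 added A: tccctgagaccctaacttgTGAAA
The pair shortened by 2 nts both end in the same U, after which the mature forms carry GA.

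The reads behind these values were recovered from the RPMM. Annotated reads per library ran from 283991 in mid-myocardium of heart 6 to 1428025 in endocardium of heart 7, so that the level shown by 3 reads ran from 10.6 down to 2.10 RPMM. The members took 0.981% to 3.47% of the annotated reads, between 2787 and 26718 reads per library. Intervals on shares of reads cover counting error only, since reads amplified by PCR without molecular identifiers are not independent molecules. No source names a batch, and an animal and the handling of its heart cannot be told apart.

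miR-125a-5p was the most abundant arm. It was at 5610, 5609 and 6996 RPMM in heart 6, at 23683, 14709 and 13346 RPMM in heart 7, and at 14506, 9783 and 19345 RPMM in heart 8. All 3 libraries of heart 6 lay below the other 6, and the means were 2.84 times higher in heart 7 and 2.40 times higher in heart 8 than in heart 6. miR-125b-5p was at 4197, 3553 and 3802 RPMM in heart 6. It was at 10301, 5406 and 4207 RPMM in heart 7, and at 6623, 4965 and 8308 RPMM in heart 8. Heart 6 was again lowest, though its epicardium nearly reached the endocardium of heart 7, and its mean was exceeded 1.72 times in either of the other hearts. Within hearts 6 and 8 miR-125a-5p was highest in endocardium, and within heart 7 it was highest in epicardium. In bulk tissue, fewer cells of a type and less RNA per cell cannot be told apart.

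Of the * strands, miR-125b-2-3p did not follow the 5′ arms and miR-125b-1-3p had heart 6 lowest, as they did. miR-125b-2-3p, the * strand of the chromosome 11 hairpin, was at 709, 630 and 499 RPMM in heart 6, at 638, 524 and 595 RPMM in heart 7, and at 668, 540 and 563 RPMM in heart 8. The hearts overlapped, and their means of 613, 586 and 590 RPMM differed by less than the spread between layers. miR-125b-1-3p, from the chromosome 8 hairpin, was far lower. It was at 29.8, 21.1 and 26.7 RPMM in heart 6, at 44.1, 35.8 and 42.7 RPMM in heart 7, and at 38.6, 38.0 and 36.8 RPMM in heart 8, with heart 6 below the others, although its mid-myocardial value rested on 6 reads. The reads of miR-125b-2-3p outnumbered those of miR-125b-1-3p 18.7 to 29.8 times in heart 6 and 13.9 to 17.3 times in hearts 7 and 8. miR-125a-3p was close to the limit of these libraries, with 46 reads in all, a highest level of 9.84 RPMM, and no read in mid-myocardium of heart 6. The most abundant form of each * strand was the full-length arm, as follows.
miR-125b-2-3p, 1450 of 4554 reads: acaagtcaggctcttgggacct
miR-125b-1-3p, 100 of 279 reads: acgggttaggctcttgggagct
miR-125a-3p, 14 of 46 reads: acaggtgaggttcttgggagcc

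**Figure D1:**
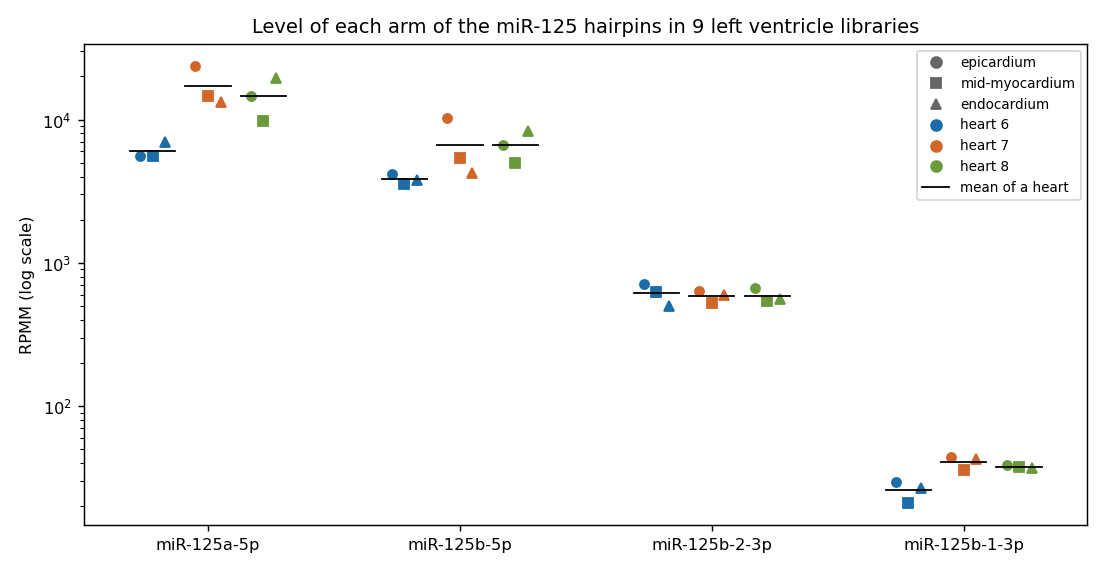
Level of 4 arms of the miR-125 hairpins in RPMM on a log scale, with 1 point per library, colours for hearts, shapes for layers and a bar at the mean of each heart. Heart 6 lies below hearts 7 and 8 for both 5′ arms and for miR-125b-1-3p, whereas miR-125b-2-3p stays between 499 and 709 RPMM in all 9 libraries.

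At the level of whole entries, the 3 hearts were tested with the moderated F test of limma on log2(RPMM + 1), with layer as a covariate, over 453 entries of all species that had at least 10 reads in 1 library. None of the 453 passed an adjusted p of 0.05 (0% called), 47 had an unadjusted p under that value, and edgeR's quasi-likelihood test on the recovered reads, chosen after seeing the data, called 9. The entry mir-125a ranked 10 of the 453 by its p (adjusted p = 0.253 by limma), with log2 differences from heart 6 of 1.47 in heart 7 and 1.21 in heart 8. edgeR gave it an adjusted p of 0.0418, and limma with a pseudocount of 10 in place of 1 gave 0.0258 and called 10 entries, mir-125b-1 among them (0.0227), so these calls depended on the test and on the pseudocount. The entry mir-125b-1 holds the reads that the annotation gave to the chromosome 8 hairpin alone, from both of its arms. It was at 44.7, 28.2 and 37.9 RPMM in heart 6, 149, 75.7 and 80.5 RPMM in heart 7, and 131, 68.4 and 122 RPMM in heart 8 (adjusted p = 0.114 by limma, 0.0344 by edgeR). On average over the 9 libraries, 40.9 of its 82.0 RPMM were tccctgagaccctaacttgTGAT, which a chromosome 11 read with an added U would match. mir-125b-1//mir-125b-2, which holds the reads shared by both hairpins, had an adjusted p of 0.657 by limma, mir-125b-2 of 0.666 and mir-125b-2* of 0.987.

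Single sequences showed where the hearts differed. The exact mature form of miR-125a was at 1230, 1412 and 1778 RPMM in heart 6, at 1291, 1156 and 1006 RPMM in heart 7, and at 714, 1660 and 1285 RPMM in heart 8. The hearts overlapped. The form shortened by 2 nts, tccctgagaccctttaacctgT, was at 2518, 2412 and 3090 RPMM in heart 6. It reached 15070, 9501 and 7964 RPMM in heart 7, and 8206, 5510 and 12023 RPMM in heart 8. Heart 6 was thus below every library of the other hearts, whose means were 4.06 and 3.21 times higher. The form shortened by 1 nt, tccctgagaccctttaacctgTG, did not separate the hearts and lay between 415 and 598 RPMM in all 9 libraries.

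miR-125b showed the same arrangement with a wider gap. Its exact mature form was at 2192, 1909 and 2058 RPMM in heart 6, at 2117, 1620 and 1085 RPMM in heart 7, and at 1168, 2122 and 1968 RPMM in heart 8, and the hearts overlapped. The form shortened by 2 nts, tccctgagaccctaacttgT, was at 247, 176 and 207 RPMM in heart 6, against 3856, 1733 and 1216 RPMM in heart 7 and 2011, 1044 and 2924 RPMM in heart 8. Here the lowest library of hearts 7 and 8 was above the highest of heart 6 by more than the whole level of heart 6, and the means were 10.8 and 9.50 times higher. The form shortened by 1 nt lay between 232 and 384 RPMM, with the hearts overlapping.

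**Figure D2:**
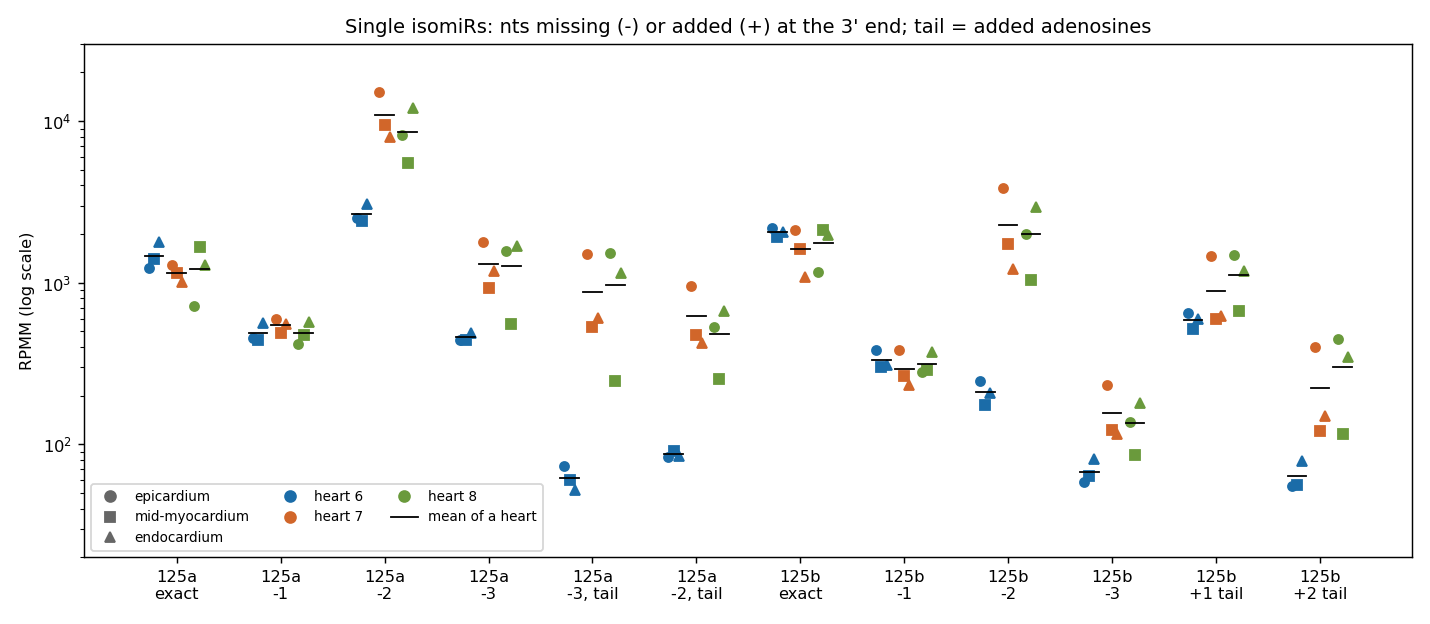
Levels of 12 single isomiRs in RPMM on a log scale, named by the number of nts missing (-) or added (+) at the 3′ end, with tail for added adenosines, 1 point per library and a bar at the mean of each heart. The exact and 1 nt shorter forms of both miRNAs overlap between hearts, while the 2 nts shorter forms of heart 6 lie below hearts 7 and 8.

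The same F test was run over the 536 unique sequences that averaged 100 RPMM or more, of which 31 passed an adjusted p of 0.05 (5.78%). Of the 1060 members, 18 reached that level, 8 of miR-125a-5p, 9 of miR-125b-5p and 1 of miR-125b-2-3p, and 7 of the 18 passed. The level was a mean over all 9 libraries, so forms low in heart 6 could reach it through hearts 7 and 8. Among those called, heart 6 averaged 61.8 and 86.7 RPMM for the miR-125a forms with an added A. It averaged 63.5 RPMM for miR-125b with 2 added A and 28.3 RPMM for the miR-125b form ending in TGT. In 9 of the 18 all 3 libraries of heart 6 were below the other 6, against 8.96% of the 536 sequences. In none of the 18 were they above, against 6.9% of the 536. These counts cannot be read against the shares as a result about the members. The 18 are overlapping forms of a few arms, and heart 6 was singled out from these same values. The cut also left out the miR-125b form with C11T described below, which was higher in heart 6 and averaged 89.3 RPMM. The 2 nts shorter forms of miR-125a (adjusted p = 0.0204 by limma) and miR-125b (adjusted p = 0.00514 by limma) passed. The exact mature forms (adjusted p = 0.933 for both by limma) and the 1 nt shorter forms (0.982 for miR-125a and 0.990 for miR-125b) did not, which does not show that they were equal between hearts. Leaving out epicardium of heart 6 removed all 31 calls, those of the members included. Leaving out endocardium of heart 6 left 6 calls among the 536, leaving out epicardium of heart 7 left 11 and leaving out epicardium of heart 8 left 16. Over the 9 fits that left out 1 library, the 2 nts shorter form of miR-125b passed in 8, and that of miR-125a in 3, with an adjusted p between 0.00794 and 0.165.

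Adenosine-tailed forms made up 3 of the 7 calls. The miR-125a form that lacks 3 nts and carries an added A, tccctgagaccctttaacctgA, was at 73.4, 59.9 and 52.0 RPMM in heart 6. In heart 7 it was at 1504, 534 and 606 RPMM and in heart 8 at 1521, 248 and 1146 RPMM. The means were 14.3 and 15.7 times that of heart 6, and the call (adjusted p = 0.00514 by limma) held in 8 of the 9 fits without 1 library. With 2 nts missing and an added A, tccctgagaccctttaacctgTA, the levels were 84.1, 91.6 and 84.3 RPMM in heart 6, 959, 477 and 427 RPMM in heart 7, and 534, 253 and 670 RPMM in heart 8 (adjusted p = 0.0107 by limma, past the threshold in 7 of the 9 fits). The miR-125b mature form with 2 added A was at 55.3, 56.3 and 78.7 RPMM in heart 6, at 402, 121 and 151 RPMM in heart 7 and at 447, 116 and 346 RPMM in heart 8. Its adjusted p was 0.0485 by limma and 0.0679 by edgeR, and it passed in 3 of the 9 fits. With 1 added A the hearts overlapped, from 521 to 1480 RPMM (adjusted p = 0.345 by limma).

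The other 2 calls were of forms whose last nt differs from the reference. The miR-125b form tccctgagaccctaacttgTGT, in which U replaces the final A, was at 26.6, 31.7 and 26.7 RPMM in heart 6, at 210, 102 and 111 RPMM in heart 7 and at 155, 63.6 and 203 RPMM in heart 8 (adjusted p = 0.0204 by limma). Heart 6 was below the others, as for the shortened forms. The call held in 4 of the 9 fits without 1 library, with an adjusted p of up to 0.165 by limma. The miR-125a form tccctgagaccctttaacctgTGG, in which G replaces the final A, set heart 8 apart instead. It was at 151, 123 and 145 RPMM in heart 6 and at 114, 155 and 180 RPMM in heart 7, but at 18.2, 70.3 and 56.6 RPMM in heart 8 (adjusted p = 0.0470 by limma, 0.0707 by edgeR, past the threshold in 2 of the 9 fits). The matching G form of miR-125b, tccctgagaccctaacttgTGG, had its lowest 3 levels in heart 8 as well, at 25.8, 86.4 and 77.6 RPMM against 98.6 to 207 RPMM elsewhere (adjusted p = 0.181 by limma). Both G-ended forms were thus lowest in heart 8.

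The make-up of each 5′ arm shifted accordingly. Exact mature reads were 21.9%, 25.2% and 25.4% of the reads of miR-125a-5p in heart 6. They were 5.45%, 7.86% and 7.54% in heart 7, and 4.92%, 17.0% and 6.64% in heart 8. Mid-myocardium of heart 8 stood nearest to heart 6, with a 95% Wilson interval of 16.3% to 17.7% against 20.8% to 23.1% in epicardium of heart 6. For miR-125b-5p the exact mature form took 52.2%, 53.7% and 54.1% of the reads in heart 6, against 20.5%, 30.0% and 25.8% in heart 7 and 17.6%, 42.7% and 23.7% in heart 8. Again heart 6 was highest and mid-myocardium of heart 8 came next. Its interval was 41.4% to 44.1%, and the lowest in heart 6 was 50.7% to 53.8%. The hearts' means were 24.2% ± 1.95, 6.95% ± 1.31 and 9.51% ± 6.51 for miR-125a and 53.4% ± 0.988, 25.4% ± 4.72 and 28.0% ± 13.1 for miR-125b (SD, n = 3 layers of hearts 6, 7 and 8).

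The F statistic between hearts was tested by an exact two-sided permutation of the 9 libraries (280 distinct groupings, smallest p 0.00357). It gave p = 0.0321 for the exact mature share of miR-125a and p = 0.0321 for that of miR-125b by the exact permutation test. Adjusted over the 12 tests of single values both were 0.129, so neither passed. Between layers the share differed by at most 5.90 percentage points for miR-125a and 12 for miR-125b, both in mid-myocardium against epicardium, with exact permutation p values of 0.5 and 0.4 where 3 libraries against 3 cannot go below 0.1. Endocardium and mid-myocardium were each above epicardium in 3 of 3 hearts for both miRNAs, with exact sign-flip p = 0.25 over the pairs, the smallest that 3 pairs allow.

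Reads that ended 2 nts short took 43.0% to 44.9% of miR-125a-5p in heart 6 and 56.3% to 64.6% in hearts 7 and 8. For miR-125b-5p they took 4.96% to 5.88% in heart 6 and 21.0% to 37.4% in the other hearts. The ratio of the 2 nts shorter to the exact form put the shift in 1 value. For miR-125a it was 2.05, 1.71 and 1.74 in heart 6, 11.7, 8.22 and 7.91 in heart 7, and 11.5, 3.32 and 9.36 in heart 8. For miR-125b it was 0.113, 0.0923 and 0.10 in heart 6, 1.82, 1.07 and 1.12 in heart 7, and 1.72, 0.49 and 1.49 in heart 8. In heart 6 the exact form was therefore the commonest of miR-125b in every layer, whereas in hearts 7 and 8 the form shortened by 2 nts outnumbered it in all layers but mid-myocardium of heart 8. miR-125a had the 2 nts shorter form as its commonest in all 9 libraries. The most abundant sequence of the arm held 58.7% of the 98747 reads of miR-125a-5p and 30.6% of the 43387 reads of miR-125b-5p.

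**Figure D3:**
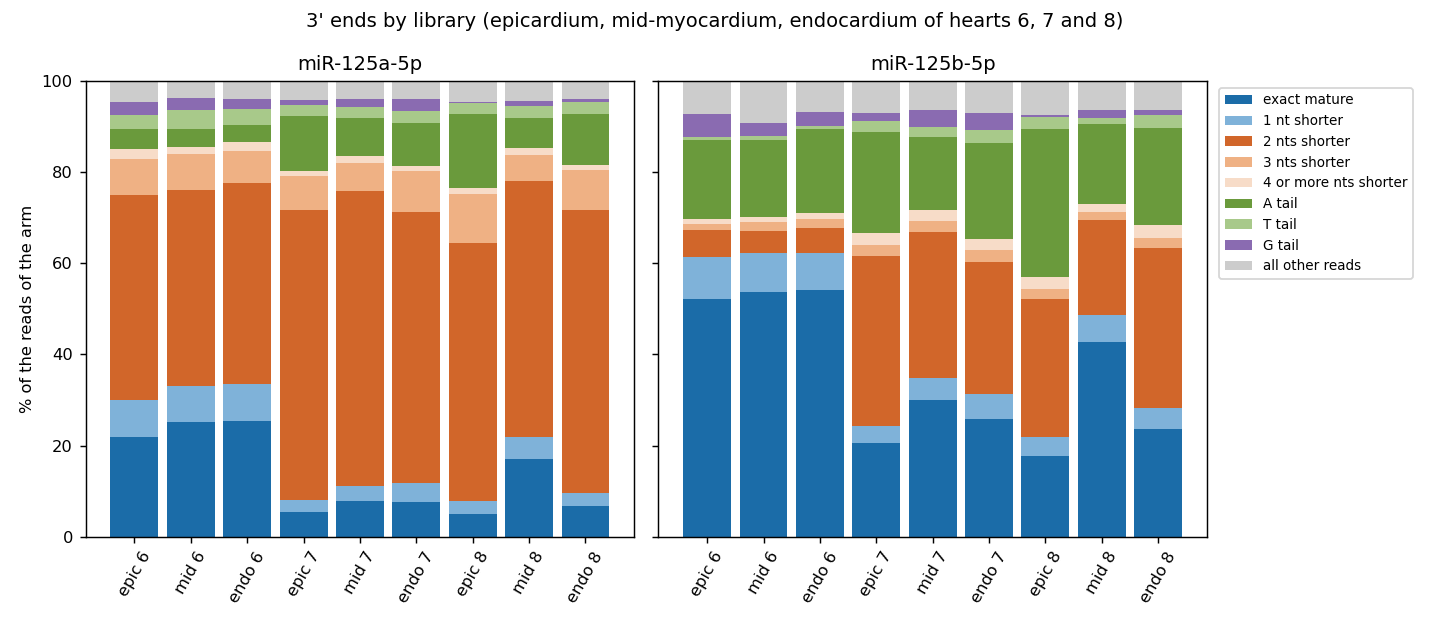
Share of the reads of miR-125a-5p (left) and miR-125b-5p (right) by 3′ end, as stacked percentages in each of 9 libraries grouped by heart. The exact mature share is 21.9% to 25.4% of miR-125a-5p and 52.2% to 54.1% of miR-125b-5p in heart 6 and lower in every library of hearts 7 and 8, where reads 2 nts shorter take more.

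Added adenosines were counted against the templated end that preceded them. Among miR-125a-5p reads whose templated part stopped 3 nts short, an A tail was on 15.5%, 12.7% and 11.5% in heart 6, on 44.7%, 34.5% and 31.9% in heart 7, and on 49.8%, 31.7% and 40.4% in heart 8. Among those that stopped 2 nts short it was on 2.93% to 4.17% in heart 6 and 4.92% to 7.76% in the others. On the full-length end of miR-125a the hearts overlapped, from 3.59% to 6.20%. For miR-125b the A tail on the full-length end was on 24.1%, 23.1% and 24.6% of reads in heart 6, 46.1%, 30.3% and 40.9% in heart 7, and 60.8%, 26.8% and 43.1% in heart 8. Among miR-125b-5p reads that stopped 3 nts short it was on 3.28%, 9.52% and 4.69% in heart 6, 30.4%, 22.2% and 20% in heart 7, and 37.1%, 13.1% and 26.3% in heart 8. The values were lowest in heart 6, as for that end of miR-125a. In heart 6, however, these tailed reads were only 0.0507%, 0.198% and 0.111% of 3943, 1009 and 2705 reads of the arm. They were thus a handful of reads, and the order of mid-myocardium in hearts 6 and 8 is not settled. On the end 2 nts short of miR-125b the hearts overlapped. Whether an A after the full-length end of miR-125b is templated was checked against the sequence of the chromosome 8 hairpin only. That of Mir125b2 was not used here, and its next nt was assumed to be G, so an added G was read as templated. A tail cannot be recognised on the end 1 nt short, since the next templated nt is an A.

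The 5′ end, which sets the seed, varied little. Reads with another 5′ start were 1.44% to 2.05% of miR-125a-5p and 1.22% to 2.43% of miR-125b-5p. The hearts overlapped for both. Split by start, heart 6 was below the other hearts for miR-125a reads that lacked 2 nts (0.643% to 0.691% against 0.762% to 1.14%) and for miR-125b reads that lacked 1 nt (0.296% to 0.406% against 0.421% to 0.794%). Starts that lacked 2 nts were the commonest of these for either miRNA, with 867 reads of miR-125a and 398 of miR-125b, and the commonest such sequence of miR-125a, cctgagaccctttaacctgt, also lacks 2 nts at its 3′ end. It was at 17.0, 28.2 and 12.7 RPMM in heart 6 and at 64.4 to 196 RPMM in the other hearts.

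Internal substitutions were few, with 1 exception, chosen for mention because of its values. With nt 1 as the 5′ nt of the mature form, the substitution C11T in miR-125b-5p had 622 reads and no other internal substitution of the exact length in either miRNA had more than 23. Its sequence was tccctgagacTctaacttgtga, with the changed nt in capitals. It was at 121, 162 and 95.6 RPMM in heart 6, 75.3, 73.0 and 56.0 RPMM in heart 7, and 56.9, 79.8 and 84.2 RPMM in heart 8. Unlike the shortened forms, it was higher in heart 6 than in any other library. It made up 3.43% to 7.82% of the exact and substituted reads together, and by that share heart 6 overlapped the other hearts. The same change in miR-125a, which shares its first 13 nts, had 23 reads, at most 0.449%.

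The ratio of the 2 miRNAs depended on which reads were counted. Over whole entries the log2 ratio of mir-125a to mir-125b-1//mir-125b-2 was 0.43, 0.66 and 0.89 in heart 6, 1.22, 1.46 and 1.68 in heart 7, and 1.16, 0.99 and 1.24 in heart 8. Heart 6 was lowest, and within each of the 3 hearts the ratio was highest in endocardium. The F statistic between hearts had p = 0.00714 by the exact permutation test and 0.0857 after adjustment over the 12 tests. Endocardium exceeded epicardium in 3 of 3 hearts, by 0.46, 0.47 and 0.08 on the log2 scale, and mid-myocardium in 3 of 3, where mid-myocardium minus endocardium was -0.23, -0.23 and -0.25, but 3 pairs cannot go below p = 0.25 in an exact sign-flip test of the pairs, which is what both comparisons gave. Counted on exact mature reads alone, miR-125b was the more abundant in every library, at a ratio of miR-125a to miR-125b between 0.561 and 0.927, and the hearts overlapped (exact permutation p = 0.854).

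Whether the family differed across the wall was asked in 3 layer comparisons by limma over all 9 libraries, without heart in the fit. The intervals below therefore include the spread between hearts. No entry of 453 passed in any of them (0% called), with 16 entries at an unadjusted p under 0.05 for endocardium against epicardium, 14 for mid-myocardium against epicardium and 16 for mid-myocardium against endocardium. edgeR and DESeq2 also called none, and Baggerley's test called 3 entries in endocardium against epicardium, none of them a member. For mir-125a the log2 fold change of endocardium against epicardium was -0.03, with a 95% interval from -1.38 to 1.32. For mir-125b-1//mir-125b-2 it was -0.37 (interval -1.31 to 0.57) and for mir-125b-2* it was -0.28 (interval -0.80 to 0.24). Mid-myocardium against epicardium gave -0.42 for mir-125a, -0.52 for mir-125b-1//mir-125b-2 and -0.26 for mir-125b-2*. Every interval held 0, and for endocardium against epicardium a difference of 2-fold either way lay within the interval of mir-125a. The largest of these differences in size was that of mir-125b-1 in mid-myocardium against epicardium, at -0.85 (interval -2.21 to 0.51). Over all 453 entries the median log2 fold changes were within 0.03 of 0.

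No unique sequence of 536 passed in a layer comparison either (0% called), with 11, 10 and 16 at an unadjusted p under 0.05 in the same order, and none called by edgeR. Among the 18 member sequences tested, log2 fold changes ran from -0.74 to 0.72 for endocardium against epicardium and from -1.47 to 0.68 for mid-myocardium against epicardium, with adjusted p by limma of at least 0.946. For mid-myocardium against endocardium they ran from -0.79 to 0.19, with adjusted p by limma of at least 0.815.

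**Figure D4:**
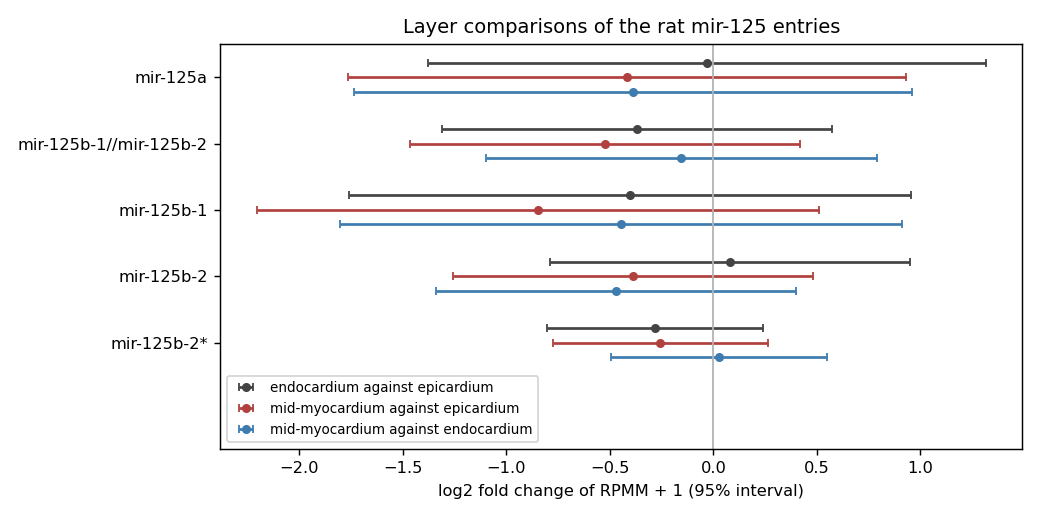
Log2 fold changes of RPMM + 1 between layers for the 5 rat mir-125 entries, as points with 95% intervals from limma over 9 libraries, without heart in the fit. All 15 intervals include 0, and that of mir-125a for endocardium against epicardium reaches from -1.38 to 1.32.

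The genes beside the mir-125 genes were read from a list of 7 miRNAs of the same clusters or seed. No entry of the 7 passed the adjusted threshold in any comparison of layers or hearts by limma. miR-99b, whose gene lies beside Mir125a, was at 2573, 2049 and 1675 RPMM in heart 6, at 15063, 7825 and 10595 RPMM in heart 7 and at 20704, 3681 and 14135 RPMM in heart 8 (adjusted p = 0.114 by limma). miR-100, beside Mir125b1, was at 1036, 771 and 738 RPMM in heart 6, and at 1596 to 7258 RPMM in the others (adjusted p = 0.114 by limma). miR-99a, beside Mir125b2, was at 744, 634 and 505 RPMM in heart 6 and at 775 to 2093 RPMM in the others (adjusted p = 0.410 by limma). The mature entries of all 3 members of the miR-99/100 family were therefore lowest in heart 6. The * strands of miR-99a and miR-99b were not. That of miR-99b was at 24.5, 35.2 and 28.1 RPMM in heart 6, above the 15.8 to 23.4 RPMM of the other hearts. That of miR-99a overlapped, at 71.3 to 91.6 RPMM in heart 6 and 57.1 to 82.6 RPMM in the others. let-7e, which lies between Mir99b and Mir125a, was not lowest in heart 6 either: it was at 851, 683 and 794 RPMM in heart 6, at 563, 636 and 713 RPMM in heart 7 and at 464, 632 and 622 RPMM in heart 8 (adjusted p = 0.744 by limma). let-7a and let-7c were higher in heart 6 than in the other libraries, with means of 10855 RPMM for let-7a and 7687 RPMM for let-7c in that heart (adjusted p of 0.666 and 0.714 by limma). miR-351, which has the seed of miR-125, stayed between 837 and 1251 RPMM. Of the unique sequences tested between hearts, 14 stood under miR-99a, miR-99b or miR-100 and 9 of these were among the 31 called. Another 20 stood under let-7a, let-7c, let-7e or miR-351 and none of these was called. Over all 536 sequences 5.78% were called, so none of 20 is near that share. The same cut on the mean applied, and forms of 1 miRNA overlap.

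The shift in the exact mature share was large beside that of other miRNAs. Of 48 rat entries with a mean of at least 1000 RPMM, the range of the 3 hearts' mean shares was widest for miR-125b (27.9 percentage points), followed by miR-99a (24.4) and miR-125a (17.2). The next was 10.2 points, for miR-191, and the median of the 48 was 1.82. Heart 6 was above both other hearts in all its libraries in 6 of the 48 and below in 3. Of 36 entries with at least 1% of reads ending 2 nts short, heart 6 was below the other hearts in 5, miR-125a and miR-125b among them, and above in 3, among them miR-99a, in which such reads took 13.2% in heart 6 against 7.52% and 8.66%. In miR-99a a lower exact mature share thus went with fewer, not more, reads that ended 2 nts short. These are descriptions, with no test of 1 entry against the rest.

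**Figure D5:**
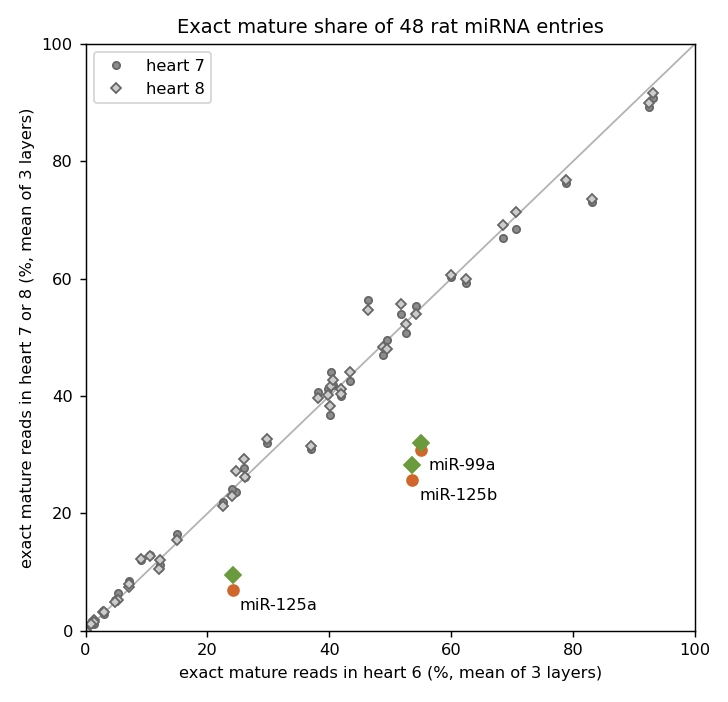
Exact mature reads as a percentage of each of 48 rat miRNA entries, with heart 6 on the horizontal axis and heart 7 (circles) or heart 8 (diamonds) on the vertical axis, each the mean of 3 layers. Most entries lie along the line of equality, and miR-125a, miR-125b and miR-99a lie below it, with ranges over the 3 hearts of 17.2 to 27.9 percentage points.

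The entries whose levels ran most alike were found by Pearson's r of log2(RPMM + 1) over the 9 libraries, among 179 rat entries with at least 10 reads in every library. Closest to mir-125a were mir-674 (r = 0.95), mir-100 (r = 0.93) and mir-145* (r = 0.91), where the median entry had r = -0.12. Closest to mir-125b-1//mir-125b-2 were mir-99a (r = 0.92), mir-100 (r = 0.89) and mir-125a (r = 0.88), where the median was -0.05. mir-125b-2*, the other strand of the chromosome 11 hairpin, had r = 0.14 with mir-125b-1//mir-125b-2. The points share hearts and depth, so these values are descriptions.

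Other measures were read beside the difference between hearts. The miRNAs that mark heart muscle (6 of 6 listed) summed to 94126 to 108144 RPMM in heart 6 and 54340 to 142826 RPMM in hearts 7 and 8. Those of smooth muscle, endothelium, fibroblasts, red cells and leukocytes also overlapped between heart 6 and the other hearts, with none of their markers at 0. The miRNAs listed for red cells (miR-486, miR-451 and miR-144, 3 of 3 listed) summed to 129139 to 148707 RPMM in heart 6 and to 93800 to 228889 RPMM in the others. The authors cite an earlier report that heart and skeletal muscle are rich in miR-486, so this sum does not measure red cells alone. The mean length of rat reads was 22.0 nts in each library of heart 6 and 21.9 to 22.1 nts in the others, and annotated reads of heart 6 were 283991 to 939580 against 753214 to 1428025. Their part in the difference between hearts was not tested.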

How the data were processed

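Small RNA of 9 left ventricle libraries was prepared with the TruSeq kit, and the authors trimmed and aligned the reads to miRBase v18 with CLC Genomics Workbench v4.0. The authors deposited the RPM of each annotated sequence, scaled to the annotated reads (RPMM), a grouped table with a signal in RPM on 2 totals, and the raw count of each unannotated sequence with at least 10 reads. All (100%) RPMM values were whole reads at a tolerance of 0.01 read. The grouped table served only as an alternative.

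The members, gene lists and tests were chosen with earlier results of these data known. Reads were summed by rat entry or placed on a hairpin arm at the ungapped position with the fewest mismatches to RefSeq, with a penalty for overhang. From there the templated stretch was read, allowing a 3′ tail of up to 3 nts. The placement was tested on 1000 simulated sequences without internal substitutions, all placed rightly. Libraries were grouped by the layer and heart number in the sample labels. limma (lmFit, eBayes) was run on log2(RPMM + 1), over 453 entries with at least 10 reads in 1 library and over 536 sequences that averaged 100 RPMM or more. The Benjamini-Hochberg adjusted p had to be under 0.05. Hearts were compared by its F test with layer as a covariate. On simulated data limma called 88.5% of entries changed 4-fold between endocardium and epicardium and 2.5% of those changed 2-fold. Between hearts it called 92% and 0% of such entries, and 99.5% and 46.5% of such unique sequences. Each simulation changed 200 features at once, more than passed in any main comparison of the real libraries, which makes the adjusted threshold easier to pass. All these rates can thus overstate what the fits detect in the real libraries. The simulated layer changes carried no differences between hearts, which in the real libraries add to the spread of the layer fits. This too can make the layer rates overstate what those fits detect. Layers of 1 heart are 1 animal, which pairs them: their deviations correlated at a mean of 0.148 (-0.134 to 0.403) within hearts and -0.0707 between. Single values had exact permutation tests, with sign-flip tests over the heart pairs chosen after seeing the data, and shares of single libraries 95% Wilson intervals. Since nothing else separates samples of a layer or heart, p values measure the spread between these libraries.

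Sequences named were the exact mature form, the 6 most abundant of each 5′ arm and the 3 most abundant of each * strand, and those past the threshold. Others named, such as C11T and the form lacking nts at both ends, were singled out after their values were seen. Beside them stand 7 cluster or seed relatives (mir-99a, mir-99b, mir-100, let-7a, let-7c, let-7e, mir-351) by their commonest entry, the * strands of mir-99a and mir-99b, and the 3 entries most alike. Alternatives covered pseudocounts of 0.1 and 10, filters, edgeR, DESeq2, Baggerley's test, heart as block, the grouped table and each library left out. RefSeq tables were of GRCr8. The hairpin sequence of Mir125b2 was not used here. The tools were limma 3.58.1, DESeq2 1.42.0 and edgeR 4.0.16 in R 4.3.3. Tables and figures were made with numpy 2.4.6, pandas 2.3.3, matplotlib 3.10.9 and scipy 1.17.1 in Python 3.11.15.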

Additional observations from a re-analysis of the deposited data

Results flagged for a closer look

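A pair of sequences in the table of unannotated reads share at least 15 nts in a row with miR-125b-5p, and lie outside the measurement of the annotated reads. The sequence tccctgagaccctaactaa had 24 reads over the 9 libraries and none in any layer of heart 6. Its highest count was 10, in endocardium of heart 8. The sequence tccctgagaccctaacttaa had 57 reads, with 2, 0 and 0 in epicardium, mid-myocardium and endocardium of heart 6, 13, 5 and 11 in heart 7, and 13, 1 and 12 in heart 8. Both counts are above the 3 reads taken as the limit of a count of 0, and there are no control samples to set beside them.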

How the results depend on the processing

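Entries called between hearts rose from 0 to 10 with a pseudocount of 10, 2 without a filter, 2 with at least 10 reads in every library, 9 with edgeR's quasi-likelihood test and 1 with the grouped table, and ranged from 0 to 5 without 1 library. Baggerley's test called 3 entries for endocardium against epicardium. Unique sequences called between hearts rose from 31 to 56 with a mean of at least 10 RPMM and ranged from 0 (without epicardium of heart 6) to 40 (without mid-myocardium of heart 8). The cause was not tested. Without 1 library, the mean exact mature share ranged from 12.1% to 14.6% for miR-125a and from 33.3% to 37.9% for miR-125b, and the exact permutation p rose to 0.0679 without any 1 library of heart 6 and, for miR-125b, to 0.0536 without endocardium of heart 7. The mean log2 ratio of miR-125a to miR-125b turned from 1.08 to -0.50 on exact mature reads, which leave out the 2 nts shorter form. The replicate block of heart numbers gave 0 calls among entries and 0 among unique sequences in each layer comparison, and so changed no call, and the pairing of single values by heart left their layer comparisons past no threshold. Layer calls stayed at 0 under the other alternatives run. Among single member entries and sequences, 608 of the values under alternatives kept their side of the threshold, 35 lost it and 8 gained it. Depth limits miR-125a-3p, miR-125b-1-3p and mid-myocardium of heart 6.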

Other observations

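Sequences under mir-125 names of other species held 1184 reads in 86 sequences. Of these reads, 987 stood under Nasonia longicornis and none of those held the stretch CCTGAGAC of the rat mature forms, while 170 of the 1184 did. Adding the reads of entries named mir-125, mir-125a or mir-125b in other species moved the mean level of miR-125a from 12626 to 12639 RPMM and that of miR-125b from 5648 to 5780 RPMM, less than the spread between libraries.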
